A study of Homo sapiens with 47 samples.

Results

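The matrix metalloproteinase (MMP) gene cluster on chromosome 11 holds 9 genes that encode secreted proteases. It was examined through every deposited interval that overlaps by at least 1 bp the hg19 window from 102.38 to 102.85 Mb of chromosome 11, which is 470 kb long. This rule found 342 of the 2305813 intervals in the series: 280 of 1654632 ATAC-seq peaks, 17 of 170372 H3K27ac peaks, 45 of 478961 H3K9me3 islands and 0 of 1848 intervals of a table named RRR. The rule used position alone and no measured value. ATAC-seq maps open chromatin through the cuts of the transposase Tn5. H3K27ac is found at promoters and enhancers in use, and H3K9me3 in heterochromatin.

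The series holds 47 samples of 2 human melanoma cell lines, 451Lu and WM983B, and the libraries with a file used here were 20 for ATAC-seq, 4 for H3K27ac and 8 for H3K9me3. Both lines were profiled as parental cells, the controls, and as cells resistant to vemurafenib, an inhibitor of the mutated kinase BRAF. In 451Lu the engineered groups were AP1 (c-JUN and c-FOS over-expressed, set against vector), shp150 (an shRNA against p150, set against an NT control) and shp150_AP1 (both changes, set against vector_NT, which carries both controls). H3K9me3 was profiled only in 451Lu, in the parental, resistant, shp150_AP1 and vector_NT groups, and H3K27ac only in parental and resistant cells of either line. The labels give no dose, time or passage, do not say whether engineered cells were sensitive or resistant, and do not say whether a group is 1 clone. There were 2 libraries per group for ATAC-seq and for H3K9me3. Each H3K27ac group had 1 library with a file, so H3K27ac differences have no replicate check. That library was replicate 1 in both 451Lu groups and replicate 2 in both WM983B groups. The labels do not tie replicates to separate cultures, so p-values measure only the spread between libraries, which may be technical. The melanoma label was not checked against lineage markers, since no hg19 gene annotation was used here.

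The proteases of this cluster cut components of the extracellular matrix. MMP1, MMP8 and MMP13 are collagenases that cleave fibrillar collagen, MMP3 and MMP10 are stromelysins with broad substrates, and MMP7 (matrilysin) lacks the hemopexin domain of most relatives. MMP12 is the macrophage elastase, MMP20 (enamelysin) processes tooth enamel proteins, and MMP27 is less studied. Several of these genes, MMP1 and MMP3 first among them, are textbook targets of AP-1, a dimer of JUN and FOS proteins that binds a short palindromic motif. In RefSeq (GRCh38.p14) the 9 genes follow each other as MMP7, MMP20, MMP27, MMP8, MMP10, MMP1, MMP3, MMP12 and MMP13, and the 7 other genes listed between MMP7 and MMP13 include 0 protein-coding ones. The series files use hg19, so no peak or island was assigned to a gene, and the positions below are hg19 positions.

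Promoter sequences from RefSeq (GRCh38.p14) were found for 5 of the 9 members, MMP7, MMP20, MMP27, MMP8 and MMP10, all on the minus strand of chromosome 11. The motif TGANTCA, which reads the same on both strands, was searched because c-JUN and c-FOS were over-expressed in the study. It occurred in 3 of these 5 promoters and in 7.76% of all 27305 RefSeq promoters (2120) of the same length. The stricter form TGACTCA, or TGAGTCA on the other strand, is one case of TGANTCA and occurred in 1 of 5 members (MMP7) and in 4.92% of all promoters (1344). The 3 promoters with a match are shown, as the 250 bases before the annotated start, 5′ to 3′ on the gene's strand, with the match in capitals.
MMP7: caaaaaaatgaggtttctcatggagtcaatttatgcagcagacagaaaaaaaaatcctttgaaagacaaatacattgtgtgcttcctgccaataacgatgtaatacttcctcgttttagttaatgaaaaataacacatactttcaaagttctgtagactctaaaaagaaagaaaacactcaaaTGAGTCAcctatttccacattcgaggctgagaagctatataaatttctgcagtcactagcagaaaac
MMP20: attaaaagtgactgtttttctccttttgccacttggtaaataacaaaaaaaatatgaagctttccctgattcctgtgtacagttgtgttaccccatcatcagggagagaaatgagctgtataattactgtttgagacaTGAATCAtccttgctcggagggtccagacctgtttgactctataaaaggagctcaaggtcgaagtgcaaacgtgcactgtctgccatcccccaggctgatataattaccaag
MMP10: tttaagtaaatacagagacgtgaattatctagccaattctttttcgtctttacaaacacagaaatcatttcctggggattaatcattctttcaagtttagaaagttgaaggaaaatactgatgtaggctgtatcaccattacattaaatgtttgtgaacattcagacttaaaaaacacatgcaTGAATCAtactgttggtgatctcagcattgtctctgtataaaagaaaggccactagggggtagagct
The match is TGAGTCA in MMP7 and TGAATCA in MMP20 and MMP10. Its first base lies 67 bases before the start in MMP7 and in MMP10 and 112 bases before it in MMP20. The windows of MMP27 and MMP8 hold no TGANTCA. MMP1, MMP3, MMP12 and MMP13 had no entry. Lists of related genes were taken the same way: 0 of 3 matched genes among 9 other metalloproteinases, 0 of 3 among 4 metalloproteinase inhibitors (the TIMP genes) and 2 of 8 among 12 other AP-1 target genes held the motif. These matches describe letters in a sequence. Whether any of them lay in a peak was not examined, as the builds differ.

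One limit applies to every WM983B value by group. The base overlap (Jaccard index) of WM983B ATAC-seq lists was 0.578 for the pair of replicates 1 and 0.609 for the pair of replicates 2, each pair being 1 parental and 1 resistant library, but 0.510 within the parental and 0.509 within the resistant label. In 451Lu the replicates of one label were the more alike, at 0.726 and 0.715, against 0.625 to 0.635 across labels. WM983B libraries thus went by replicate number rather than by label. Whether a WM983B label was exchanged cannot be told from these files, so the sign of each resistant-minus-parental value in WM983B rests on the labels. Inside the MMP window a split by number gave 0 regions called only in replicates 2 (8.69% of all regions) and 0 called only in replicates 1 (3.87%). ATAC-seq lists held 79670 to 94550 peaks in 451Lu parental, resistant, vector_NT and shp150_AP1 libraries. They held 42898 to 56824 in the 451Lu vector, AP1, NT and shp150 libraries and 129339 to 147988 in WM983B. Peak lists carry no read depth, which is therefore unknown.

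The cluster held many peaks of open chromatin in 451Lu and few in WM983B. The 20 libraries merged into 41 sites of open chromatin, numbered here from low to high coordinates, with a median width of 426 bp (113 to 1056 bp). Of these, 36 were called in 451Lu only, 2 in WM983B only and 3 in both lines. The merge takes 16 libraries of 451Lu and 4 of WM983B, which gives 451Lu more chances of a call. The shares of these classes over the genome were not taken, so nothing is read from the counts. Parental 451Lu replicates had 25 and 22 peaks in the window and the resistant ones 26 and 25, while WM983B had 3 and 3 in parental and 3 and 2 in resistant cells. The ranges of these peak counts do not overlap between the lines. The share of windows with such a gap in peak counts was not taken.

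Peaks covered 9550 and 9563 bp of the window in parental 451Lu, 10535 and 10878 bp in resistant 451Lu, 550 and 489 bp in parental WM983B and 516 and 236 bp in resistant WM983B. The mean was 10132 ± 679 bp in 451Lu (SD, n = 4) and 448 ± 143 bp in WM983B (SD, n = 4), a 22.6-fold difference. The exact two-sided permutation test gave p = 0.0286, the smallest value that 4 libraries against 4 can give. This comparison was added after the data were seen, and the 4 libraries of a line share that line, so the test covers these libraries and not melanoma lines at large. As background, of 6054 windows of this length tiled along the chromosomes 65.1% had higher coverage in every 451Lu than in every WM983B library, and 3.01% the reverse. A fold at least as large as that of the MMP window occurred in 18 of them, or 0.297%. The median window differed 1.51-fold. WM983B peaks were also narrower over the genome, with a median width of 170 to 190 bp against 456 to 479 bp in the parental and resistant 451Lu libraries. The part of peak width in the result was not tested. The MMP window ranked above 68.6 to 72.0% of windows in these 451Lu libraries and above 2.78 to 6.14% in WM983B.

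In steps of one window, the low WM983B coverage began at the cluster and went on into the next window. In the adjoining window of equal length at lower coordinates, WM983B had 26 to 31 peaks and 451Lu 24 to 31, so the ranges of peak counts overlap. Covered length there did not overlap, at 5083 to 6062 bp in WM983B and 13591 to 15259 bp in 451Lu, a 2.53-fold difference. In the adjoining window at higher coordinates WM983B had 0 to 3 peaks and 451Lu 10 to 14, and the mean coverage was 353 bp against 6471 bp, an 18.3-fold difference. In the next window after that the fold was 1.53, near that of the median window. Low WM983B coverage was not confined to these windows. The window that starts 2820 kb below the MMP window held 78 bp on average in WM983B and 654 bp in 451Lu.

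**Figure D1:**
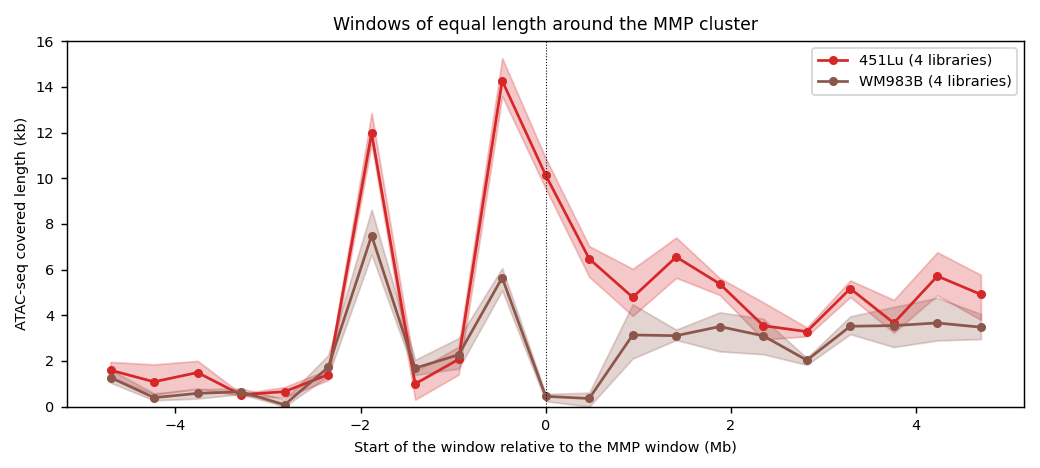
ATAC-seq covered length in kb of consecutive windows of equal length around the MMP window, which starts at 0 on the x axis (Mb). Lines are the means of 4 libraries per line, bands the lowest to the highest library; WM983B covers at most 606 bp in the MMP window and the next one, and 3135 bp on average in the window after.

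Sites open in every library of a line were picked out, and the share of such sites over the genome was not taken. Sites 8, 10, 16 and 23 were called in all 16 451Lu libraries, and site 16 alone was also called in all 4 WM983B libraries. Site 16 (chr11:102473611-102474546) scored 67.7 and 73.4 in parental and 78.3 and 71.3 in resistant 451Lu, in the top 0.957 to 2.77% of those lists. The score is the authors' own peak value and serves only to rank peaks within a list. In WM983B the same site scored 6.89 and 8.97 in parental and 4.64 and 8.10 in resistant cells, in the top 39.5 to 68.6% of the lists. Site 16 is thus among the strongest peaks of the 451Lu genome and a middling peak in WM983B.

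Site 8 (chr11:102425610-102426383) scored 69.9 and 78.9 in parental and 59.4 and 58.6 in resistant 451Lu. It was in the top 2.38 and 1.46% of the parental and the top 3.62 and 4.21% of the resistant lists. Site 23 (chr11:102595597-102596652) scored 54.4 and 57.3 in parental and 44.7 and 54.5 in resistant cells. It was in the top 6.27 and 5.94% of the parental and the top 9.05 and 5.37% of the resistant lists. Site 10 (chr11:102444488-102445233) scored 35.2 and 40.8 in parental and 15.1 and 23 in resistant cells, in the top 17.7 and 14.3% of the parental and the top 44.9 and 29.9% of the resistant lists. None of these 3 sites was called in WM983B. In the 8 vector, AP1, NT and shp150 libraries, whose lists are shorter, site 8 scored 19.4 to 32.7 and site 10 scored 8.0 to 16.5. Site 16 scored 19.9 to 38.1 there and site 23 scored 19.6 to 27.6. Within these lists site 8 was in the top 4.42 to 19.2% and site 10 in the top 20.4 to 46.7%. Site 16 was in the top 1.80 to 6.55% and site 23 in the top 5.32 to 15.8%. The best-scoring peak of the window was at site 8 or site 16 in each of the 16 451Lu libraries. In WM983B it was at site 16 in 3 libraries and, in resistant replicate 1, at site 5 (chr11:102410439-102410558, score 6.04).

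The other sites shared by both lines were site 15 and site 24. Site 15 (chr11:102470213-102470925) was called in 13 of 16 451Lu libraries and in 3 of 4 WM983B libraries, and site 24 (chr11:102604097-102604545) in 15 and in 1. Sites 5 and 7, each called in 1 WM983B library, were called in no 451Lu library.

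**Figure D2:**
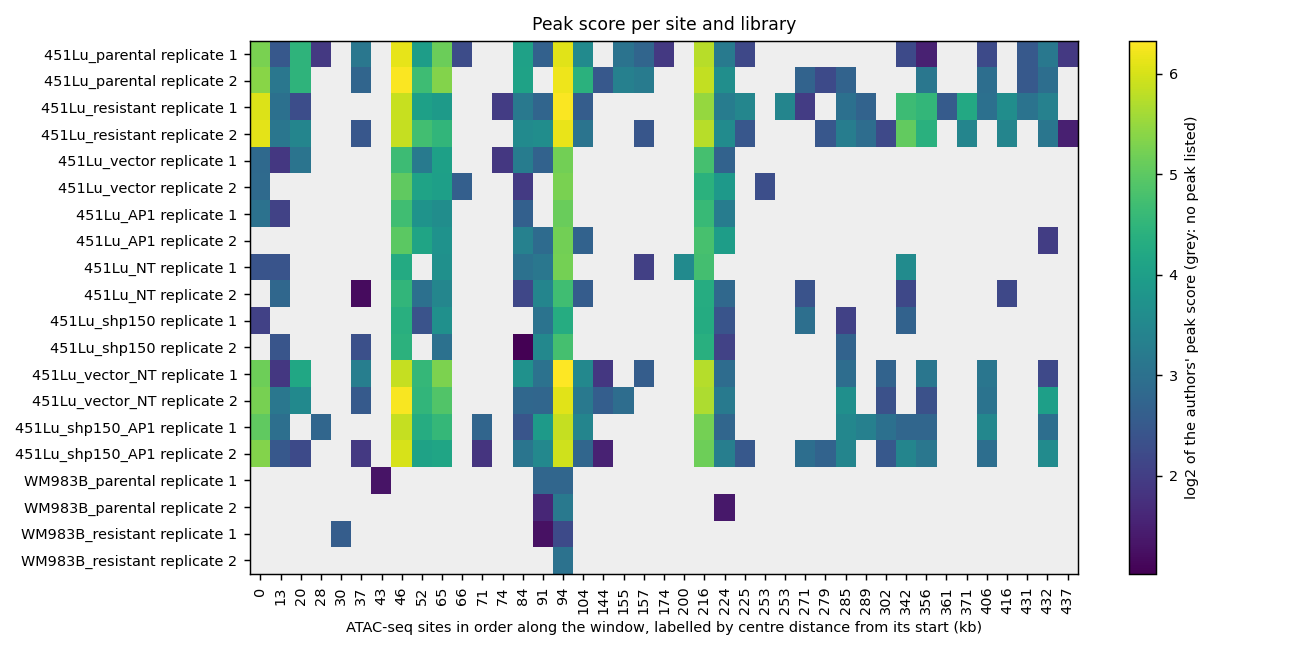
Peak score (log2 colour scale) of the 41 ATAC-seq sites, in order along the window and labelled by the distance of their centre from its start in kb, in each of the 20 libraries; grey means that no peak is listed. The columns at 46, 65, 94 and 216 kb are filled in all 16 451Lu rows, and the one at 94 kb in the 4 WM983B rows as well.

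The comparison of resistant with parental 451Lu asked where the cluster opened or closed with vemurafenib resistance. Covered length was 10707 ± 243 bp in resistant (SD, n = 2) and 9557 ± 9.19 bp in parental cells (SD, n = 2), a difference of 1150 bp, and the groups do not overlap. The exact permutation test gave p = 0.33, the smallest value that 2 libraries against 2 can give, so no such comparison can pass 0.05. Coverage was higher without overlap in 43% of all windows and lower in 16.4%. With lists of equal length the difference was 405.5 bp. Of 36 regions in the window, 13 were called in all 4 libraries, 3 were gained (called in both resistant and neither parental library) and 1 was lost. These are 8.33% and 2.78% of the window's regions, against 9.79% gained and 3.96% lost over all 114302 regions, so the window's shares were near the background. There were 6 gained regions without resistant replicate 2 or without parental replicate 1. Lost regions numbered 3 without either resistant replicate, 2 without parental replicate 1 and 4 without parental replicate 2.

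The 3 gained regions were centred 289, 371 and 416 kb into the window. The best-scoring one, site 36 (chr11:102750532-102750906), scored 18.6 and 10.8 in the resistant libraries and was called in no other library of the 20. Site 38 (chr11:102795253-102796005) scored 12.3 and 10.8 in resistant cells and 4.53 in NT replicate 2. Site 31 (chr11:102668803-102669165) scored 6.53 and 7.54 in resistant cells and 10.1 in shp150_AP1 replicate 1. Over the 3 regions these peaks ranked in the top 37.2 to 80.5% of the resistant lists. The region lost in resistant cells, at site 19 (chr11:102535038-102535328), scored 8.23 and 10.1 in the parental libraries and 7.60 in vector_NT replicate 2.

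Other sites were listed in both groups at different ranks. Site 33 (chr11:102721809-102722475) scored 25.3 and 33.4 in resistant cells, in the top 26.2 and 17.6% of the lists, and 4.65 in parental replicate 1, in the top 93.5%. No peak was listed there in parental replicate 2. Site 34 (chr11:102735117-102735958), chosen after its values were seen, scored 23.1 and 21.1 in resistant cells (top 29.3 and 32.8%) and 2.86 and 8.70 in parental cells (top 99.8 and 69.4%). Sites 33 and 34 are centred 342 and 356 kb into the window, between the gained regions. At the window's lower edge, site 1 (chr11:102379561-102380200) scored 65.9 and 69.7 in resistant cells, in the top 2.32 and 2.02%, and 38.6 and 41.9 in parental cells, in the top 14.8 and 13.5%. Site 17 (chr11:102483660-102484422) ranked higher in the parental lists, with 5.99 and 8.42 in resistant (top 82.5 and 68.7%) and 11.8 and 21.2 in parental cells (top 56.3 and 35.8%). So did sites 3 and 14, also chosen after their values were seen. Site 3 scored 4.83 and 10.8 in resistant (top 92.8 and 58.6%) and 22.2 and 22.1 in parental cells (top 33.3 and 34.4%). Site 14 scored 8.97 and 11.8 in resistant (top 66.9 and 55.0%) and 16.6 and 16.9 in parental cells (top 43.6 and 44.0%). Scores and ranks describe each list by itself. The lists differ in length, so no change is inferred from these values, and they were not tested between groups. Leaving out peaks with a score under 5, which removes the parental peak at site 33, gave 5 gained regions.

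In WM983B the libraries labelled resistant covered 376 ± 198 bp (SD, n = 2) and those labelled parental 520 ± 43.1 bp (SD, n = 2), a difference of -143.5 bp (exact permutation p = 0.667). The groups overlap, where 3.44% of all windows were lower and 14.7% higher without overlap. Between libraries of the same number the difference was -34 bp in replicates 1 and -253 bp in replicates 2. None of the 5 regions was gained (1.47% of all regions) or lost (1.22%), and 1 was called in all 4 libraries. The difference was -3.5 bp without resistant replicate 2 and -283.5 bp without resistant replicate 1. There was 1 gained region without resistant replicate 2, and 1 lost region without resistant replicate 1 or either parental replicate. The resistant-minus-parental difference in 451Lu, 1150 bp, was set against that in WM983B by permuting the drug-response labels within each line. The exact test over 36 permutations gave p = 0.111. It does not use the likeness of same-numbered WM983B libraries.

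The next comparisons asked whether AP-1 over-expression or the hairpin against p150 changed the window by itself. AP1 cells had 3824 and 4342 bp of open chromatin, and vector cells 4813 and 4281 bp. The groups overlap, where 29.5% of all windows were lower and 4.84% higher without overlap, and the means of 4083 ± 366 bp and 4547 ± 376 bp (SD, n = 2 each) differed by -464 bp (exact permutation p = 0.667). None of the 16 regions was gained (1.6% of all regions) or lost (2.86%). Sites 8, 10, 16 and 23 were open in all 4 of these libraries. At site 8, for example, AP1 cells scored 25.9 and 31.9 and vector cells 25.2 and 32.7. Without AP1 replicate 1 there were 2 gained and 1 lost region, and without either vector replicate 2 lost regions. The difference in covered length was -205 bp without AP1 replicate 1, -198 bp without vector replicate 1, -723 bp without AP1 replicate 2 and -730 bp without vector replicate 2.

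With the hairpin alone the covered length was 3751 and 3830 bp, below the 4463 and 4892 bp of NT without overlap. The means were 3791 ± 55.9 bp and 4678 ± 303 bp (SD, n = 2 each), a difference of -887 bp (exact permutation p = 0.33). Coverage was lower without overlap in 70.7% of all windows and higher in 1.92%. The shp150 lists were shorter than the NT lists, and with lists of equal length the difference was -91 bp. Of 18 regions 1 was gained (0.747% of all regions) and 0 were lost (7.51%). The gained region, at site 30 (chr11:102665060-102665541), scored 4.13 and 6.57 in shp150 cells. It was not gained when peaks with a score under 5 were left out. Without NT replicate 2 there were 2 gained regions. Lost regions numbered 1 without shp150 replicate 1, and 2 without shp150 replicate 2 or either NT replicate. Site 30 was also open in both vector_NT, both shp150_AP1 and both resistant libraries and in parental replicate 2.

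The combined change asked what both together did. Covered length was 9199 and 10349 bp in shp150_AP1 and 9054 and 8548 bp in vector_NT cells. The groups do not overlap, the means being 9774 ± 813 bp and 8801 ± 358 bp (SD, n = 2 each), a difference of 973 bp (exact permutation p = 0.33). Coverage was higher without overlap in 27% of all windows and lower in 17.4%. The difference was 398 bp without shp150_AP1 replicate 2 and 1548 bp without shp150_AP1 replicate 1. Of 28 regions 16 were called in all 4 libraries, 2 (7.14%) were gained and 0 were lost, against 5.19% and 3.26% over all 108325 regions. The first gain, site 12 (chr11:102450969-102451249), scored 6.75 and 3.55, in the top 76.5 and 98.0% of the lists, and was called in no other library. The second was site 33, where shp150_AP1 cells scored 6.82 and 10.9 and neither vector_NT library had a peak. This is also the site listed in both resistant libraries and in 1 parental library. Both NT libraries (12.1 and 4.53) and shp150 replicate 1 (6.51) also listed a peak. Site 34, by contrast, scored 6.82 and 8.70 in shp150_AP1 and 8.63 and 5.06 in vector_NT cells, so it was listed in all 4. The 3 regions gained in resistant cells were not gained in the combined cells. The share of resistant gains also gained in combined cells over the genome was not taken, so nothing is read from this. Gained regions numbered 6 without shp150_AP1 replicate 1 and 4 without replicate 2 of that group. Lost regions numbered 3 without shp150_AP1 replicate 2 and 1 without either vector_NT replicate.

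**Figure D3:**
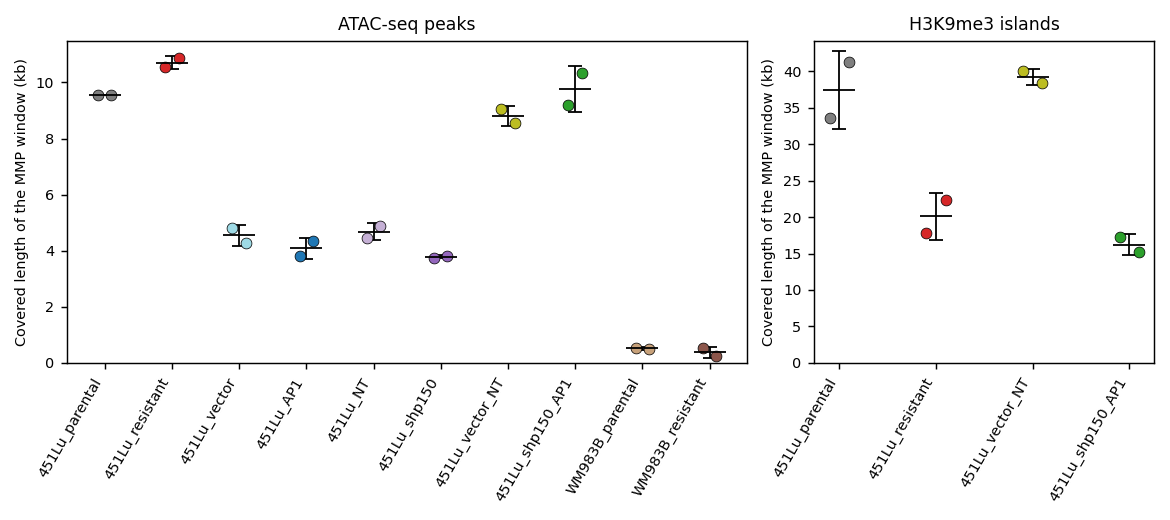
Covered length of the MMP window in kb by ATAC-seq peaks (left) and H3K9me3 islands (right). Points are libraries, lines the mean and bars 1 SD (n = 2 per group); WM983B has at most 550 bp of open chromatin, and resistant and shp150_AP1 cells lie below their controls in H3K9me3.

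H3K27ac over the cluster was listed in 451Lu only. The 451Lu lists held 7 peaks (2658 bp) in parental and 10 peaks (3648 bp) in resistant cells, and both WM983B lists held 0. Over the genome 21.2% of WM983B regions were listed in resistant and 43.8% in parental cells only. Windows with 0 peaks in both WM983B lists made up 4.56% of all 5786, and windows with 0 in both 451Lu lists 5.51%. Windows with 0 in WM983B and at least as much H3K27ac as the MMP window in both 451Lu lists numbered 3, or 0.0518%. As for open chromatin, the adjoining window at lower coordinates held 8 and 8 WM983B peaks, and the one at higher coordinates 0 and 0, where 451Lu had 6 in parental and 4 in resistant cells.

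The 451Lu peaks merged into 13 regions, of which 6 were in resistant cells only (50.3% of all regions), 3 in parental cells only (19.9%) and 4 in both. The list of resistant cells is longer, with 51710 against 32304 peaks. Within the resistant list the best-ranked regions lay beside site 15. There the region chr11:102471119-102471608 scored 35.9 in resistant (top 6.72% of the list) and 7.09 in parental cells (top 52.7%), and chr11:102469693-102470135, listed in resistant cells only, scored 31.0 (top 8.44%). These lie 193 and 77 bp from site 15, on either side of it. A further region in resistant cells only, chr11:102472602-102472889, scored 8.19 and lay 721 bp from site 16. In the parental list the best-ranked region was at site 10, chr11:102444941-102445523, which scored 37.3 in parental (top 6.80%) and 5.57 in resistant cells (top 69.1%). At site 1 the region scored 10.3 in resistant (top 36.6%) and 4.13 in parental cells (top 87.6%). At site 17 it scored 5.07 (top 76.6%) and 7.83 (top 47.2%). With 1 list per group none of these differences was tested.

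The other regions in resistant cells only lay away from the sites open in all libraries. Region chr11:102722817-102723161 scored 12.6 and lay 341 bp from site 33. Regions chr11:102631576-102632046 and chr11:102630519-102630827 scored 15.7 and 6.76 and lay 363 and 1582 bp from site 26, which was called in 1 library (vector replicate 2). Region chr11:102435241-102435560 scored 10.9, and 3351 bp separated it from site 9. The 3 regions in parental cells only overlapped site 8 (scores 4.10 and 4.26) and site 23 (2.70), and all 3 scored under 5. In all, 5 of the 41 ATAC-seq sites (1, 8, 10, 17 and 23) overlapped an H3K27ac peak. The share of ATAC-seq sites that do so over the genome was not taken, so the count is not called high or low.

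**Figure D4:**
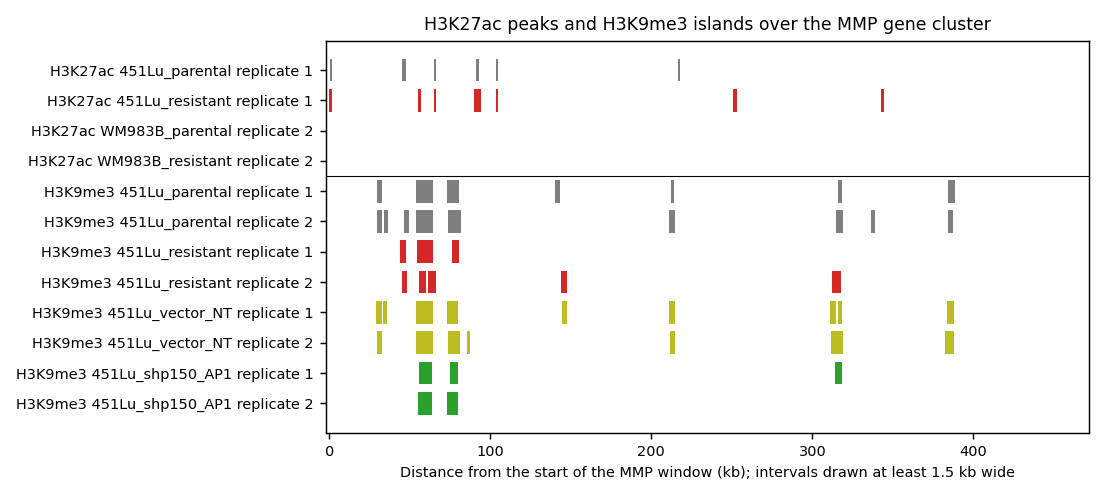
H3K27ac peaks (top) and H3K9me3 islands (bottom) across the MMP window, 1 row per library, with distance from the window start in kb on the x axis and intervals drawn at least 1.5 kb wide. The 2 WM983B rows are empty, and the resistant and shp150_AP1 rows hold 2 to 5 H3K9me3 islands against 7 to 9 in their controls.

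H3K9me3 covered less of the cluster in resistant and in shp150_AP1 cells than in their controls. Parental libraries had 7 and 9 islands over 33600 and 41200 bp, and resistant libraries 3 and 5 islands over 17800 and 22400 bp. The means were 37400 ± 5374 bp and 20100 ± 3253 bp (SD, n = 2 each), a difference of -17300 bp without overlap (exact permutation p = 0.33). Coverage was lower without overlap in 62.5% of all 5938 windows. The vector_NT libraries had 9 and 7 islands over 40000 and 38400 bp, and shp150_AP1 libraries 3 and 2 islands over 17200 and 15200 bp. The means of 39200 ± 1131 bp and 16200 ± 1414 bp (SD, n = 2 each) differed by -23000 bp without overlap (exact permutation p = 0.33), as 65.8% of windows did in that direction.

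Coverage was lower over the genome too, by different amounts for different summaries. The median window held 29200 and 31200 bp in parental and 16000 and 16400 bp in resistant libraries, and 38600 and 36700 bp in vector_NT and 21400 and 24800 bp in shp150_AP1 libraries. The share of the whole genome covered was 10.8 and 11.1% in parental, 9.49 and 8.81% in resistant, 13.1 and 12.5% in vector_NT and 8.85 and 10.5% in shp150_AP1 libraries. The share of the MMP window was 7.15 and 8.77%, 3.79 and 4.77%, 8.51 and 8.17%, and 3.66 and 3.23% in the same order. The MMP window ranked above 54.3 and 59.5% of windows in parental and above 52.4 and 58.2% in resistant libraries. In shp150_AP1 cells its rank was lower, above 42.9 and 34.8% of windows, than in vector_NT cells, above 51.2 and 51.9%. ChIP reads in the window's islands came to 107 and 122 per M reads in all islands in parental and 57.6 and 67.5 in resistant cells. They came to 101 and 101 in vector_NT and 59.5 and 45.2 in shp150_AP1 cells. All islands of a library held 15.7 and 18.3 M ChIP reads in parental, 14.8 and 13.2 M in resistant, 31.1 and 21.8 M in vector_NT and 11.5 and 14.9 M in shp150_AP1 cells. These totals are not the library's depth. The lists held 61888 and 70879 islands in parental, 40010 and 50181 in resistant, 76857 and 67147 in vector_NT and 63295 and 48704 in shp150_AP1 cells. The lists with less coverage of the window were thus also the shorter ones, and the part of this in the result was not tested.

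Each comparison lost 3 regions and gained 0. In resistant cells 3 of 11 regions were lost (27.3%, against 17.7% of all regions) and 0 gained (3.06%). In shp150_AP1 cells 3 of 9 were lost (33.3%, against 13.8%) and 0 gained (1.87%). The 3 regions of the first comparison and the 3 of the second overlapped each other, 3 of 3 in either list, with separate controls in each comparison. Over the genome 31.0% of the 13643 regions lost in resistant cells overlapped a region lost in shp150_AP1 cells, and 37.3% of the 11315 lost there the reverse. With a false discovery rate of at most 0.01, 3 regions of the window were lost in resistant and 2 in shp150_AP1 cells, and with a fold of at least 2, 2 in each comparison. The 3 shared regions were chr11:102409601-102413000, chr11:102590801-102594600 and chr11:102764001-102768800, given as in the first comparison. The fold of ChIP over input, the authors' value per island, was 2.03 and 1.91 at the first of them in parental and 1.68 and 1.20 in vector_NT libraries, the last with a false discovery rate of 0.0269. At the second it was 2.91 and 3.38 in parental and 2.06 and 2.97 in vector_NT libraries, and at the last 3.13 and 2.61 and then 2.53 and 2.80. The second lies 997 bp from site 23, which was open in all 16 451Lu libraries. No ATAC-seq site gained in a comparison overlapped one of the 3. There were 5 lost regions in resistant cells without parental replicate 1 and 5 in shp150_AP1 cells without vector_NT replicate 2. In resistant cells 1 region was gained without resistant replicate 1 or without parental replicate 2.

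The island with the most reads was called in all 8 libraries. It ran from 102434201 to 102444400 in both parental libraries, with 706 and 824 ChIP reads and a fold of 3.26 and 3.0. In resistant cells it was shorter, at 102434801 to 102444200 (533 reads, fold 2.10) and 102436001 to 102440400 (245 reads, fold 2.68). In vector_NT cells it held 1192 and 891 reads with folds of 3.52 and 3.56, and in shp150_AP1 cells 366 and 420 reads with folds of 3.15 and 2.53. The samples used here hold 1 input for the 2 shp150_AP1 libraries, that of replicate 2, so the input behind the folds of replicate 1 is not known from the labels used here. These folds describe each library's list and were not tested between groups. The island lies between sites 9 and 10 and ended 87 to 887 bp before site 10 in 7 of the 8 libraries. In the eighth, resistant replicate 2, the gap was 4087 bp, and a separate island with a fold of 1.03 and a false discovery rate of 0.353 covered site 10.

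Few open sites lay under islands, in the window as over the genome. In each parental, vector_NT and shp150_AP1 H3K9me3 library, 0 of the 18 or 19 sites open in both ATAC-seq libraries of that group lay under an island, where 5.87 to 7.11% of such sites did over the genome. With so few sites at such a share, nothing is read from a count of 0. In resistant cells, with 20 such sites, site 8 lay under an island in both libraries and site 10 in replicate 2, against 8.57 and 7.37% over the genome. The islands over site 8 had folds of 1.10 and 1.29 and false discovery rates of 0.118 and 0.00427. The median fold of islands in the window was 1.30 and 1.95 in the same resistant libraries, and 2.91 and 2.61 in the parental ones. The islands over site 8 are 4200 and 3200 bp wide, and reads at site 8 itself were not measured. In parental replicate 2 an island from 102426401 to 102429400 (fold 1.55, false discovery rate 3.2e-06) began just past the end of site 8, at 102426383. It merged with the resistant islands into the same region. In parental replicate 2 the contrast at site 8 thus rests on where an island edge fell. Parental replicate 1 listed no island in that region.

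The authors' deposited table of 1848 RRR intervals has columns named as DESeq2 writes them and names neither the assay nor the direction of its fold change. Of the intervals in the authors' deposited table, 93 lay on chromosome 11 and 0 overlapped the MMP window, while 34.4% of windows of equal length held at least 1. The nearest interval at lower coordinates in the authors' deposited table ended 540 kb away, with a log2 fold change of 1.60 (SE 0.69, adjusted p = 0.0276). The nearest at higher coordinates in the authors' deposited table began 1970 kb away, with a log2 fold change of 0.22 (SE 0.30, adjusted p = 0.490).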

How the data were processed

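Peaks and islands of 451Lu and WM983B cells on chromosomes 1 to 22 and X were used. The submitters' processing notes name MACS2, SICER, Bowtie2, deepTools, Picard, STAR 2.5.3 and the build hg19, and give them no role or order. Per the deposited files, ATAC-seq and H3K27ac come as 1 peak list per library, with the authors' score for each peak. What that score measures is not stated in the labels or files. H3K9me3 comes as islands per library. For each island the authors deposited a read count for ChIP and for input, the fold (ratio) between them, its p-value and its false discovery rate. The authors' deposited RRR table holds a mean signal, a log2 fold change with its error, a test score and p-values, and no such value was tested again here.

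Samples were grouped by the labels. For each comparison the 4 lists were merged into regions, and a region counted as called when a peak of that library covered 1 bp or more of it. The covered length of the window was compared by exact permutation over libraries (Python 3.11.15, numpy 2.4.6). The genome cut into 6444 windows of 470 kb from each chromosome's start gave the background, over windows with a peak or island in some library of the assay. The code was tested on simulated data. The members and gene lists were chosen with earlier results of these data known. Printed in full were sites gained or lost, sites called in all libraries of a line, sites overlapping H3K27ac, the best peak of each group, H3K27ac regions and the island with the most reads. Counts near open start sites of other genes were not taken, as no hg19 annotation was used here. Alternatives were a score of at least 5, lists of equal length, a false discovery rate of at most 0.01, a fold of at least 2, 50% coverage of a region, a window wider by 100 kb on each side, each replicate left out and a replicate block. No RNA or input library entered a comparison, and 4 H3K27ac libraries were left out, as no file of theirs was used here.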

Additional observations from a re-analysis of the deposited data

How the results depend on the processing

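No difference in covered length changed sign under an alternative that was run. The balance of gained and lost regions did: lost regions outnumbered gained ones in the combined cells with a score of at least 5, and with the hairpin without shp150 replicate 2 or NT replicate 1 (1 gained and 2 lost each). Peak lists hold no depth, H3K27ac has no replicates, and 2 libraries against 2 cannot go below p = 0.33 in an exact test, so stability of these p-values says nothing. The cause of each change below was not tested.

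Regions gained in resistant 451Lu (3) numbered 5 with a score of at least 5 and 5 in the wider window, and lost ones (1) 2 with lists of equal length. In the wider window AP1 lost 1 region and WM983B lost 1. The hairpin gained 0 with a score of at least 5. The combined cells gained 1 and lost 2 with a score of at least 5, gained 1 and lost 1 with lists of equal length, and lost 1 with 50% coverage. H3K27ac in parental 451Lu only numbered 0 with a score of at least 5 and 5 with lists of equal length. Leaving out each replicate in turn gave 4 to 6 gained and 2 to 4 lost in resistant 451Lu, 0 to 2 gained and 0 to 2 lost in AP1, 1 to 2 gained and 1 to 2 lost with the hairpin, 2 to 6 gained and 0 to 3 lost in the combined cells, and 0 to 1 gained and 0 to 1 lost in WM983B. H3K9me3 regions numbered 0 to 1 gained and 4 to 5 lost in resistant and 3 to 5 lost in combined cells.

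The labels do not say that a replicate number marks a shared batch. Deviations of same-numbered libraries from their group means over windows correlated at -0.05 to 0.03 across the 451Lu comparisons except H3K9me3 in combined cells (-0.08), and at 0.75 in WM983B. With a replicate block the differences in covered bp did not move, and the exact sign-flip p, which cannot go below 0.5 with 2 pairs, was 0.5 (1 for AP1). For 451Lu against WM983B the difference of 9683.75 bp had an exact p = 0.125 with the replicate block, the smallest that 4 pairs allow. It was 9037 bp in parental libraries alone and 10330.5 bp in resistant ones alone (exact p = 0.33 each), and 9061.5 bp with a score of at least 5 (exact p = 0.0286).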
